A study of Drosophila melanogaster with 2 samples.

Results

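The regions described here are the Slp2 binding peaks that lie between genes but near them: peaks whose summit is more than 500 bp and at most 10 kb from the nearest transcription start site (TSS) of a protein-coding gene and falls in no annotated gene or exon. There were 317 of them among the 3203 peaks of the list on the dm6 build that the authors cut at a threshold of the irreproducible discovery rate (IDR), which weighs how consistently peaks rank in replicates. They made up 9.90% of that list, beside 1631 peaks within 500 bp of a TSS, 1148 inside genes further from a TSS and 107 between genes more than 10 kb away. The data are chromatin immunoprecipitation and sequencing (ChIP-seq) from whole Drosophila melanogaster embryos of strain 9T-GFP, 0 to 24 hours old and of mixed sex, carrying a transgene that expresses Slp2 with green fluorescent protein at its C terminus, precipitated with an antibody to that protein. The 2 samples form 1 group, biological replicates 2 and 3, with no second condition and no embryo without the transgene analysed here. The collection spans all of embryonic development and every tissue, so a peak's strength mixes how many cells were bound with how strongly each was bound. The read depth is unknown, since the files hold peaks and not reads. Each peak carries the authors' signal value, whose scale no source gives, and it serves here mainly to order peaks inside one list. Ratios of it, within a list or between the replicates, are given as they stand, with no correction for depth. Values of the IDR list and of a replicate are not on a like scale. With 1 group there is no test between conditions, and shares are given with 95% Wilson intervals and counts per megabase (Mb) with exact 95% Poisson intervals. These intervals cover counting error only and treat peaks as independent.

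Slp2 (Sloppy paired 2) is a transcription factor of the forkhead family, whose DNA-binding domain recognises short sequences built around TAAACA. Its gene lies beside that of its close relative slp1. Both are pair-rule genes that help to divide the early embryo into segments, and both act again in the head, the mesoderm and the developing nervous system. The Slp proteins can repress their targets through the corepressor Groucho. In Drosophila much of the DNA that controls developmental genes lies outside promoters, in enhancers that may sit in introns or, as with the regions described here, between genes.

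The sequences of 8 of these regions are shown first, all among the strongest, to let the word be seen in its place in bound DNA and to set regions that lack it beside them. They do not sample the class as a whole. All 8 come from the 30 strongest outside one arm that was left out of sequence printing. The first 6 are those of the 30 with the forkhead word TAAACA nearest to the summit. The last 2 are the strongest of the 30 without that word. Each runs 100 bp to either side of the summit on the forward strand of dm6, read from the RefSeq Release 6 assembly and named by the nearest gene, and capitals mark the word TAAACA or its reverse complement TGTTTA:
RasGAP1, chr3L:9855908-9856107: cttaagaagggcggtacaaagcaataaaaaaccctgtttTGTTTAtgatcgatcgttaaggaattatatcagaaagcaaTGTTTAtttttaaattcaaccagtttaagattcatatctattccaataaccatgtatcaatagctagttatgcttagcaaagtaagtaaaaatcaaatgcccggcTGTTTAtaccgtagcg
jp, chr2L:9567412-9567611: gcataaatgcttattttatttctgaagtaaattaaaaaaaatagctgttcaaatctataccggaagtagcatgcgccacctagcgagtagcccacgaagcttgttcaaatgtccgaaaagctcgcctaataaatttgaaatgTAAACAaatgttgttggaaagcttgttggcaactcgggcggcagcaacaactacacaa
slp2, chr2L:3832426-3832625: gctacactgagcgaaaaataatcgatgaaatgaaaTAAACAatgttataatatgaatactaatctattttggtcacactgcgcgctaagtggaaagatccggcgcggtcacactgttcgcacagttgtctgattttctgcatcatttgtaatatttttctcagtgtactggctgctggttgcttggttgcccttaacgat
CG46467, chr3R:9873852-9874051: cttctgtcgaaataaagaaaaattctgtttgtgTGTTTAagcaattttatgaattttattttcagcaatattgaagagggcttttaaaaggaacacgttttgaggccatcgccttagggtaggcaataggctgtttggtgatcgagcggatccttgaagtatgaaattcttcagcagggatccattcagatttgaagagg
by, chr3R:9534263-9534462: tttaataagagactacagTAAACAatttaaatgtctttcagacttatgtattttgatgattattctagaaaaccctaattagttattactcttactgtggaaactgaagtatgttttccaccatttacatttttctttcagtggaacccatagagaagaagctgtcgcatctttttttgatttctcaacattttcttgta
CG5953, chr2L:16535909-16536108: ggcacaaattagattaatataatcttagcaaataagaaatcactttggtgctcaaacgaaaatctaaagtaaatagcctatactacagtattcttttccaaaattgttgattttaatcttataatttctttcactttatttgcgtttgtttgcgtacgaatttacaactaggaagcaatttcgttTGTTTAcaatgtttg
tara, chr3R:16222400-16222599: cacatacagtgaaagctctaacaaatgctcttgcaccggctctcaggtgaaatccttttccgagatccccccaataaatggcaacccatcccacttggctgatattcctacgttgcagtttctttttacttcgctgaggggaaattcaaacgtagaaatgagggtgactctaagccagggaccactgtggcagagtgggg
eEF1gamma, chr3R:29214365-29214564: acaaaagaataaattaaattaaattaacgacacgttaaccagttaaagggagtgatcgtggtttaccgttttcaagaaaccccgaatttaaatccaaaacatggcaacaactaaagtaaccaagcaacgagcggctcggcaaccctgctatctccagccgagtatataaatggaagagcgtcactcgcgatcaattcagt

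The word lay 18 bp to the left of the summit in the RasGAP1 region, which held 3 copies of it, and 45 bp to the right in the jp region. In the slp2, CG46467, by and CG5953 regions it lay 62 to 88 bp away. The tara region, the strongest of all 317, had no copy within 100 bp, and its GC content was 48.5% against 28.0% in the CG5953 region. A strong signal therefore came both with and without the word.

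The strongest peak lay 3151 bp upstream of tara, the taranis gene, which encodes a regulator of the cell cycle and of chromatin (chr3R:16222345-16222653, summit 16222500). Its signal was 678 in the IDR list, which was 6.91 times the median of 98.1 over the 317, and it was 301 in replicate 2 and 374 in replicate 3, where it ranked 30 and 20. Next came a peak 3375 bp downstream of the start of CycB, the gene of a mitotic cyclin, in the short gap past its end (chr2R:22802803-22803100), with a signal of 573 in the IDR list, 298 in replicate 2 and 281 in replicate 3. The peak between slp1 and slp2, 4314 bp upstream of slp2 (chr2L:3832369-3832641, summit 3832526), was the one ranked after these, with a signal of 512 in the IDR list, 243 in replicate 2 and 267 in replicate 3. All 3 thus ranked among the first 60 peaks in each replicate. Whether the transgene adds copies of DNA from the slp locus was not examined, so signals there carry that limit.

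Below them stood a peak 5707 bp upstream of eEF1gamma, which encodes a subunit of a translation elongation factor, with a signal of 472, and one 3776 bp downstream of the start of CG31668 with 459. The peak 580 bp upstream of sp3 had a signal of 453 in the IDR list, 149 in replicate 2 and 300 in replicate 3, and it ranked 206 and 36 in the replicates. The nearest genes of the next 3 were CG43131 (signal 452), CG17896 (384) and tara again (377, 1155 bp upstream). The 6 after those lay near CG3149, CG13321, CG43401, stck, RasGAP1 and Act5C, with signals from 369 down to 292. Of these genes, stck encodes an adaptor at integrin adhesion sites, RasGAP1 a protein that switches Ras off, and Act5C a cytoplasmic actin. The 15 strongest peaks thus belonged to 14 genes of mixed function, and 11 of the 15 lay upstream of the gene they were assigned to. Their ranks ran from 30 to 206 in replicate 2 and from 20 to 223 in replicate 3, and a forkhead word lay within 100 bp of 3 of them.

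As a class the peaks between genes were of middling strength. Their median signal was 98.1 (quartiles 78.8 and 139, highest 678), against 104 at promoters, 101 inside genes and 95.5 more than 10 kb from a TSS. Among the 300 strongest IDR peaks 21 were of this class (7.00%, 95% interval 4.62 to 10.5). The share was 10.6% (8.50 to 13.1) over ranks 301 to 1000 and 10.1% (8.89 to 11.4) over ranks 1001 to 3203. In the weaker pooled peaks that the IDR list leaves out it was 11.8% (11.0 to 12.5) over ranks 3204 to 10000 and 14.2% (13.7 to 14.7) beyond. The last of these matches the 13.9% of all bases on the 6 chromosome arms that meet the rule, and the share of promoter peaks went the other way, from 60.3% of the 300 strongest to 19.8% beyond rank 10000. In the separate lists the share went from 7.33% to 12.5% in replicate 2 and from 9.00% to 15.8% in replicate 3, over the same first and last ranges of rank.

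The replicates placed these peaks alike in position but less so in strength. Of the 317, 313 had a summit in both replicate lists within 200 bp of the IDR summit, at a median offset of 13 bp in replicate 2 and 17 bp in replicate 3. The remaining 4 were looked up after their values were seen. Those nearest to sm, CG42571 and myo had no such summit in replicate 3, and 1 of the peaks nearest to Rh5 had none in replicate 2. The log2 ratio of the signal in replicate 3 to that in replicate 2 averaged -0.11 ± 0.66 (SD over peaks), with 13 peaks above 1 and 23 below -1. The signals correlated over these peaks with a Spearman rho of 0.568, a value that describes peaks chosen for their pooled signal and carries no test. Of the 317, 261 (82.3%) overlapped a peak among the 3203 strongest in replicate 2, and 272 (85.8%) did so in replicate 3. Both held 221 (69.7%, interval 64.4 to 74.5), where over the whole IDR list the share was 71.0%. Peaks between genes were therefore held by both replicates about as often as the list at large. The share was 98.7% in the stronger 158 of the 317 and 40.9% in the weaker 159. The IDR list comes from these same 2 replicates and is as long as each strongest set. A high share, and its rise with signal, is therefore in part built in and is no independent support for a peak.

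**Figure D1:**
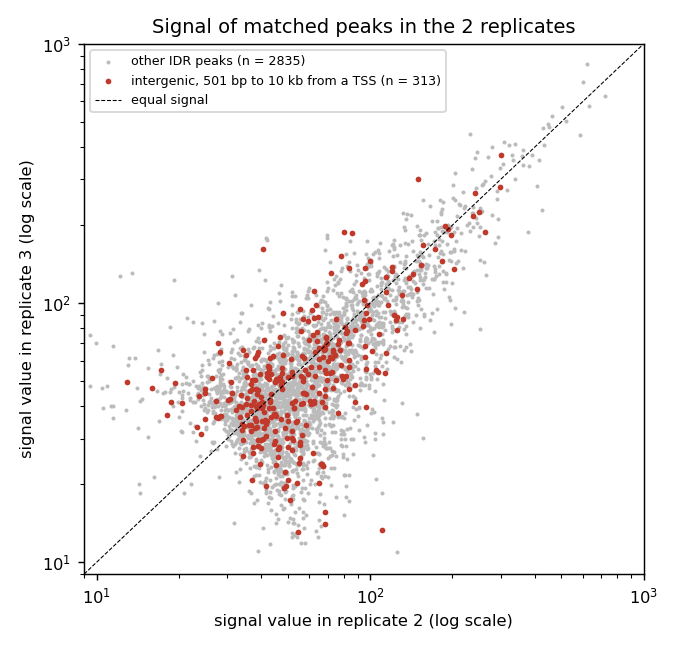
Signal value of each IDR peak in replicate 2 (x axis) and replicate 3 (y axis), both on log scales, for peaks matched within 200 bp in both lists. The 313 peaks between genes are in red and the other peaks in grey, the dashed line marks equal signal, and the red points follow the grey cloud along its length, with 13 peaks over a log2 ratio of 1 and 23 under -1.

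Within the permitted distances the peaks lay toward the start of genes. The median distance from the nearest TSS was 2432 bp (quartiles 1264 and 5167), against 3557 bp (1802 and 6054) over all bases that meet the rule. Upstream of that TSS lay 233 of the 317 (73.5%, interval 68.4 to 78.1), against 65.0% of the bases. The density fell from 31.4 peaks per Mb of such bases (24.2 to 40.2) at 501 to 1000 bp, through 21.5 (16.7 to 27.1) up to 2 kb and 14.6 (11.9 to 17.7) up to 5 kb, to 12.8 (10.2 to 15.9) up to 10 kb. Over the whole class it was 17.0 per Mb.

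This decline was seen on the upstream side. There the density was 34.2 per Mb (26.1 to 44.0) at 501 to 1000 bp and 13.2 (9.73 to 17.5) at 5 to 10 kb, and these intervals did not overlap. On the downstream side, which in this class lies past the end of the gene, it was 12.1 (2.49 to 35.3) in the nearest bin, which held 3 peaks, and 12.3 (8.51 to 17.2) in the farthest. Beyond 5 kb both sides had nearly the same density. The median signal went with distance too, from 105 at 501 to 1000 bp to 92.1 at 5 to 10 kb, while the share held by both replicates was 74.6% (62.7 to 83.7) and 68.3% (57.6 to 77.4) in these bins.

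**Figure D2:**
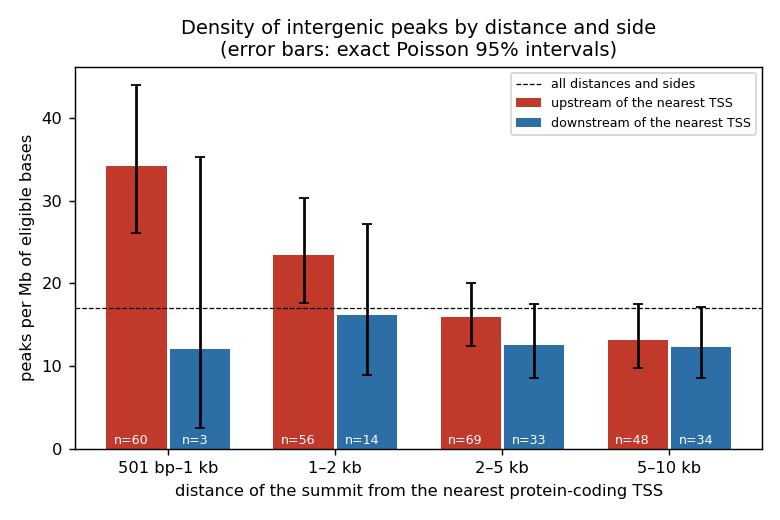
Peaks between genes per Mb of bases that meet the rule (y axis, from 0) in 4 bins of distance from the nearest TSS (x axis), upstream in red and downstream in blue, with exact Poisson 95% intervals, the number of peaks in each bar, and a dashed line at 17.0 per Mb for the whole class. The upstream bars go down from 34.2 to 13.2, and the downstream bars lie between 12.1 and 16.2.

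The rule's limits cut through this gradient. Just inside the inner limit lay peaks 503 bp from CG43066 (signal 79.7) and 504 bp from CG15172 (82.0), and just outside it, counted as promoter peaks, were peaks 499 bp from CG10479 (368) and 493 bp from CG6602 (106). At the outer limit the last peaks inside were 9715 bp from soti (120) and 9797 bp from disco-r (78.8), and the first outside were both 10290 bp away, from E5 (68.2) and CG6163 (84.1).

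The density also differed by kind of gap. Gaps between divergent genes, where both neighbours start at the gap, held 124 peaks (39.1%, interval 33.9 to 44.6) in 29.1% of the bases, or 22.8 per Mb (19.0 to 27.2). Gaps between genes on the same strand held 142 peaks (44.8%) in 51.6% of the bases, or 14.8 per Mb (12.4 to 17.4), and gaps between convergent genes, where both neighbours end, held 51 (16.1%) in 19.0%, or 14.4 per Mb (10.7 to 19.0). The interval of divergent gaps lay above that of same-strand gaps and met that of convergent gaps at its edge. All bases of divergent gaps that meet the rule lie upstream of the nearest TSS, against 68.4% of those in same-strand gaps and 1.78% in convergent gaps. On the upstream side alone, divergent gaps had 22.8 peaks per Mb (19.0 to 27.2) and same-strand gaps 16.4 (13.5 to 19.8, 108 peaks), intervals that overlap at their edges. The downstream bases of same-strand and convergent gaps had 11.2 (7.74 to 15.6) and 14.4 (10.7 to 19.0). Neither the median signal (102, 98.3 and 97.3 in this order) nor the share held by both replicates (68.5%, 70.4% and 70.6%) set the kinds apart.

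By chromosome arm the density was 20.3 per Mb on 2L (16.0 to 25.3, 79 peaks), 16.9 on 2R, 17.5 on 3L, 14.7 on 3R and 14.7 on X (10.5 to 20.1, 40 peaks). Chromosome 4, the small and largely heterochromatic chromosome, had 4 peaks in 86423 such bases, or 46.3 per Mb with an interval from 12.6 to 119. All of these intervals overlap each other. One of the 4 peaks lay 3897 bp upstream of zfh2, a homeobox gene (signal 157 in the IDR list, 105 in replicate 2, 55.1 in replicate 3).

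A promoter peak of the same gene accompanied part of these peaks. The nearest gene of 42 of the 317 (13.2%, interval 9.95 to 17.4) also had an IDR summit within 500 bp of one of its starts. How many of all genes have such a promoter peak was not counted, so 13.2% cannot be called low or high for genes at large. Among peaks inside genes the share was 29.7%, and among those more than 10 kb from a TSS it was 14.95%. It was 63.4% over the whole list, which counts the promoter peaks themselves. It was 20.6% at 501 to 1000 bp and 9.76% at 5 to 10 kb. The 2 strongest peaks of this kind were those of eEF1gamma and Act5C. Among the weaker ones was a peak 4212 bp upstream of Psc, which encodes a Polycomb protein (signal 213). The distance to the nearest promoter peak of any gene had a median of 27312 bp.

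Some were close to the start of a non-coding RNA, which the rule does not count as a TSS. Such a start lay within 500 bp of 28 peaks (8.83%), against 5.15% of the whole list and 3.04% of the bases that meet the rule. The strongest of them was the eEF1gamma peak, 97 bp from the start of lncRNA:CR31044, and the Act5C peak lay 211 bp from that of lncRNA:CR45668. No nearest start within 500 bp was that of a transfer RNA gene.

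Base composition changed sharply at the summit. GC content within 100 bp of the summit averaged 36.9% ± 5.78 (SD, n = 317 peaks), against 40.9% ± 6.40 in windows of the same size 600 bp to either side and 41.1% ± 8.21 in all 86383 windows of 200 bp tiled over the bases that meet the rule. In bins of 100 bp it was 44.1% between 300 and 200 bp to the left, 36.8% and 37.1% in the bins that touch the summit, and 43.1% between 200 and 300 bp to the right. Promoter peaks had a similar summit (37.6%) set in richer flanks (45.8%). Peaks inside genes (36.6% and 41.2%) and those more than 10 kb from a TSS (36.7% and 41.0%) were like the peaks described here in both.

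The forkhead word was somewhat more frequent at the summits than beside them. TAAACA, on either strand, was found within 100 bp of 73 of the 317 summits (23.0%, interval 18.7 to 28.0), in 117 of 634 flanking windows (18.5%, 15.6 to 21.7) and in 18.5% of the tiled windows. The intervals of summits and flanks overlap. Over the whole IDR list the share at summits was 26.4%, with 27.0% (24.9 to 29.2) at promoters, 26.5% inside genes and 27.1% far from genes, so the peaks described here had the lowest share of the 4 classes by a margin within their counting error. The 2 bins of 100 bp that touch the summit held the word in 13.2% and 11.0% of peaks, where the bins from 200 to 1000 bp away ranged from 6.31% to 11.7%.

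In the tiled windows the word became rarer as GC rose, while at the summits it showed no such trend. Where GC was under 35% the word was in 24.8% of summits and 28.0% of tiled windows, at 35 to 40% in 20.9% and 21.3%, at 40 to 45% in 22.6% and 17.4%, and at 45% or more in 25.9% (13.2 to 44.7, 7 of 27 summits) and 11.4%. The summits were thus above the tiled windows only where GC was 40% or more, and below them under 35%, and only at 45% or more did their interval leave out the tiled share. The longer words TAAACAA and GTAAACA, which contain TAAACA, were found at 11.7% (8.59 to 15.7) and 4.73% (2.89 to 7.66) of summits, against 8.68% and 4.57% of flanks and 8.16% and 3.82% of tiled windows.

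Peaks with the word were not the stronger ones. Their median signal was 93.2, against 101 for the 244 without it, and both replicates held 69.9% (58.6 to 79.2) of the former and 69.7% (63.6 to 75.1) of the latter. The word was in 19.6% (14.2 to 26.5) of the stronger 158 peaks and 26.4% (20.2 to 33.8) of the weaker 159. By distance it went from 28.6% (18.9 to 40.7) at 501 to 1000 bp to 19.5% (12.4 to 29.4) at 5 to 10 kb, intervals that overlap.

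**Figure D3:**
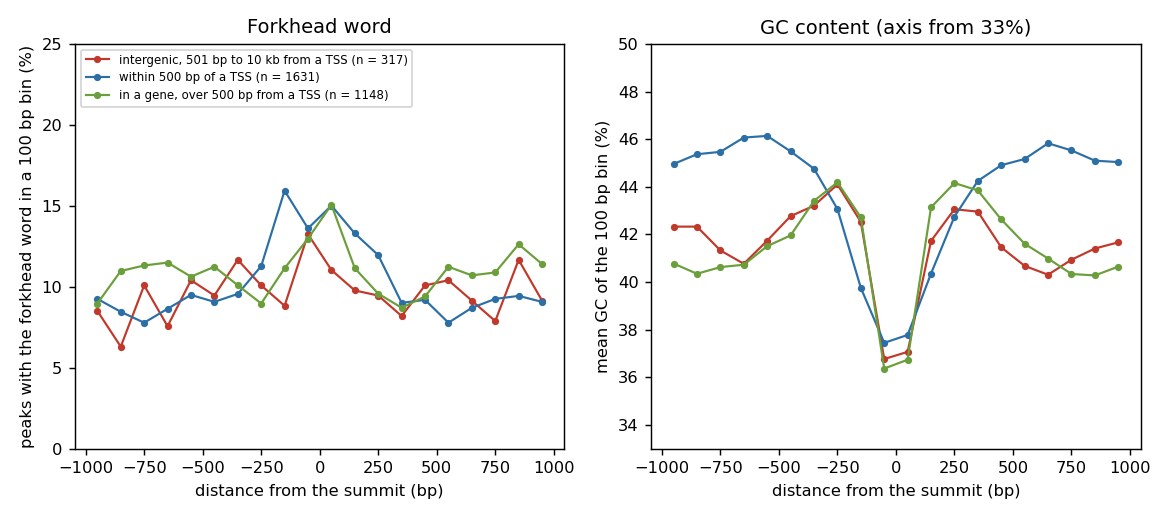
Left, share of peaks with the word TAAACA on either strand in each bin of 100 bp, and right, mean GC content of the bin (axis from 33 to 50%), both against distance from the summit in bp, for 317 peaks between genes (red), 1631 promoter peaks (blue) and 1148 peaks inside genes (green). In red the word stands at 13.2% and 11.0% beside the summit, and GC falls to 36.8% and 37.1% there.

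Other short words separated promoter peaks from these peaks and from the other peaks away from promoters. The DREF word TATCGATA, bound by a factor of housekeeping promoters, was within 100 bp of 1 of 317 summits (0.315%, interval 0.0557 to 1.76) but of 7.60% (6.41 to 8.99) of promoter summits, and tiled windows had it at 0.274%. GGTCACAC, the word of the promoter factor M1BP, was at 2 of 317 (0.631%, 0.173 to 2.27) against 4.35% (3.47 to 5.46) of promoter summits. One of those 2 was the strong peak between slp1 and slp2, as was seen after the counts were made. The E-box CAGCTG was at 4.42% (2.65 to 7.28) of summits, below the 8.68% of their own flanks and the 11.8% (10.3 to 13.4) of promoter summits. For all 3 words the interval of these summits lay below that of promoter summits. Summits inside genes and far from genes were low too, at 0.348% and 0% for the DREF word and 0.261% and 0% for the M1BP word. The E-box was at 6.36% and 2.80% of them, so these low shares were not particular to the peaks described here.

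Higher at summits than in tiled windows were TATAAA, a core promoter word, at 29.3% (24.6 to 34.6) against 22.9%, and GAGAGA, the word of the Trl protein, at 11.4% (8.32 to 15.3) against 6.15%. The flanks of the same peaks held TATAAA in 22.2% and GAGAGA in 10.4%. At summits of promoters, inside genes and far from genes TATAAA stood at 31.2%, 30.1% and 26.2%, and GAGAGA at 9.01%, 13.4% and 20.6%. Neither word was compared at like GC content, which was lower at summits (36.9%) than in tiled windows (41.1%). The other words stood at summits much as they did over the class at large, with the share in tiled windows inside the interval of the summits. CAGGTA, bound by the early activator Zelda, was at 5.05% against 3.81%, and AGATAA, bound by Serpent and its relatives, at 11.0% against 10.5%. TAATTA, a homeodomain word, was at 13.2% against 15.6%, and GGATTA, preferred by Bicoid, at 5.99% against 6.70%. TTCNNNGAA, the word of STAT, was at 4.73% against 5.85%, and TGGGAA, that of Su(H) in the Notch pathway, at 12.3% against 13.6%. TGANTCA, the AP-1 word, was at 4.73% against 3.80%, AAAAAAAA at 12.9% against 11.6% and CACACA at 13.6% against 17.5%. All words were searched on both strands, and a match says nothing of whether the factor binds there.

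Part of the peaks shared a gap with others of the class. The 317 were spread over 248 gaps, of which 48 held at least 2 and 16 at least 3, and 117 peaks shared their gap with another. Another of these peaks lay within 2 kb of 63 of them, and the next IDR peak of any class was a median of 6328 bp away. The gap holding the highest number was that of 27292 bp between CG44362 and CG7560 on 3L, with 6 peaks of signals from 98.8 to 256. All 6 were held by both replicates, none had a forkhead word within 100 bp, and 5 of them were assigned to CG7560.

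The gap of 37097 bp between RFeSP and chinmo, which encodes a zinc finger protein that sets the identity of neurons by their birth time, held 5 peaks. Of these, 4 were upstream of chinmo at 1061 to 7900 bp, with signals of 206, 155, 74.6 and 67.5, and the 2 stronger ones were held by both replicates. A further 14 gaps held 3 peaks, of which both replicates held all 3 in 3 gaps, 2 in 7 gaps and 1 in 4 gaps, and the 3 gaps with the highest summed signal among them are described here. The gap between mtSSB and tara held 3 peaks of signals 678, 377 and 139, all held by both replicates, and so did the gap of 5808 bp between COX7AL2 and CG31668, with 459, 167 and 158.

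Between slp1 and slp2, in a gap of 9740 bp, lay the strong peak described above and 2 weaker ones, 4930 bp upstream of slp2 (signal 79.6) and 2206 bp downstream of the start of slp1 (89.6). The slp1 peak had a forkhead word 4 bp from its summit, and its signal was 67.1 in replicate 2, rank 1131, but 23.5 in replicate 3, rank 4891, outside the strongest set there. Past the end of slp2 lay 2 more peaks for which it was the nearest gene, 4287 and 6963 bp downstream of its start, with signals of 93.2 and 72.7.

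**Figure D4:**
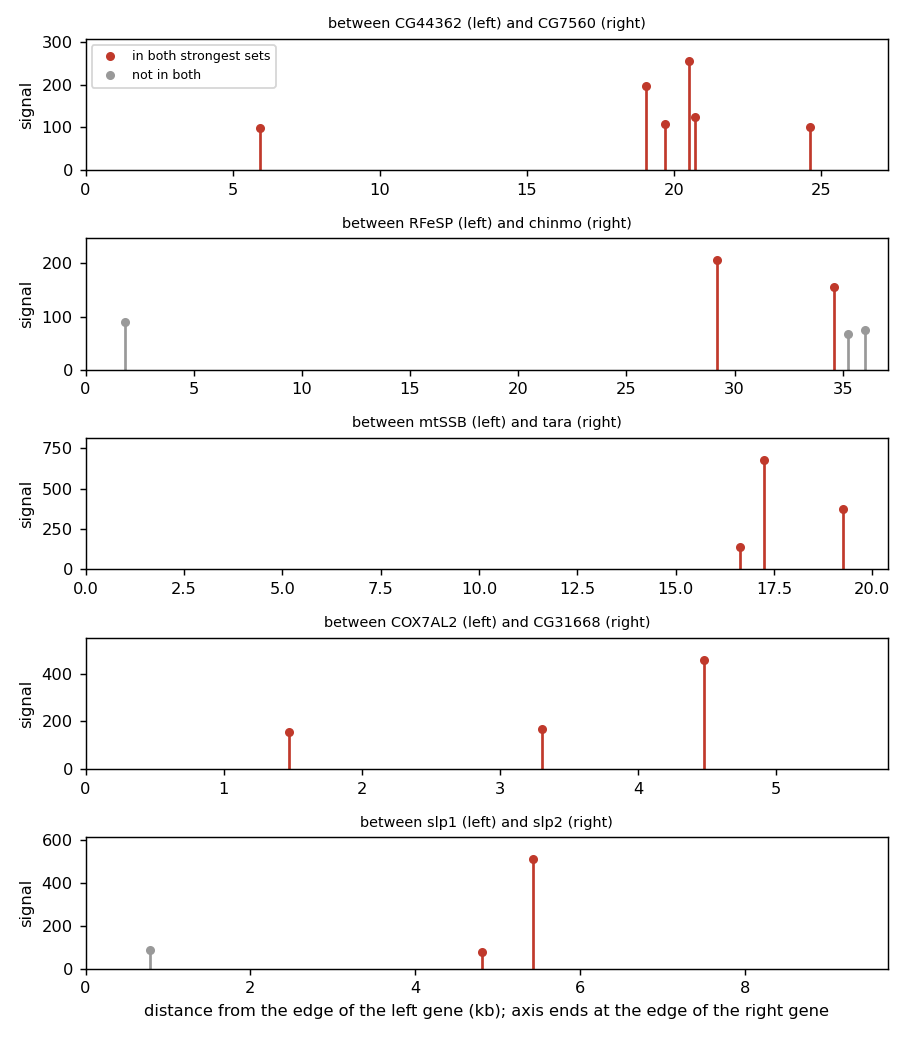
Signal value in the IDR list (y axes, from 0) of each peak in 5 gaps between genes, those with 6 and 5 peaks and the 3 of highest summed signal among 14 gaps with 3 peaks, against distance in kb from the edge of the left gene, with the right gene at the end of each axis. Red peaks were held by the strongest sets of both replicates and grey ones were not, and the gaps of CG7560 (6 of 6), tara (3 of 3) and CG31668 (3 of 3) are all red.

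The genes beside these peaks were then described by lists of known function. A gene was counted if it was the nearest to at least 1 base that meets the rule, which held for 6473 protein-coding genes, and 265 of these (4.09%) were nearest to at least 1 peak. The lists differ in how many such bases surround their genes, so the density per Mb of their own bases is given too, beside 17.0 per Mb (15.2 to 19.0) over all genes. Lists were not tested, and some genes stand in more than 1.

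Among the genes that pattern the early embryo, 5 of 11 pair-rule genes (45.5%) were nearest to 8 of the peaks, at 71.8 per Mb (31.0 to 142). Of these 8 peaks, 5 were those of slp2 and slp1, so the list's density rests largely on the slp locus. The others included that of odd, a zinc finger repressor, 8045 bp downstream of its start (signal 107 in the IDR list, 47.5 in replicate 2, 56.4 in replicate 3). Another was that of opa, a zinc finger activator, 5838 bp upstream (73.6, 36.7 and 34.0). The list also counts sob, a relative of odd, with a peak 6743 bp upstream (signal 73.0). The opa peak lay outside the strongest set of replicate 2. Of the gap, maternal and head patterning genes 2 of 17 had a peak. Doc2, a T-box gene, had 3 at 4512 to 8988 bp upstream, of which 2 carried a forkhead word, and oc, a homeobox gene of the head, had one 6093 bp upstream (signal 123). Of segment polarity, Wnt and Hedgehog genes 3 of 18 did: ptc, the Hedgehog receptor gene (5214 bp upstream, signal 133), Wnt4, a Wnt ligand gene (96.6), and fz, a Wnt receptor gene (81.9).

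Forkhead genes themselves were near these peaks in 6 of 14 cases (42.9%), with 10 peaks at 103 per Mb (49.2 to 189). Apart from the slp pair, bin, a regulator of the gut muscle, had a peak 1438 bp upstream with a signal of 134 in the IDR list, 78.3 in replicate 2 and 57.8 in replicate 3 and a forkhead word within 100 bp. The insulin-regulated gene foxo had 2, at 3282 and 4578 bp upstream (signals 113 and 126), both held by both replicates, and FoxL1 had one 1903 bp upstream (96.4). Of the 10 peaks, 5 belonged to slp2 and slp1, so the pair-rule and forkhead lists share these. The limit given above for signals at the slp locus holds for both lists.

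Growth, cell cycle and chromatin genes had the highest density of the lists with more than 1 gene near a peak, 161 per Mb (77.3 to 297), with 7 of 24 genes (29.2%) near 10 peaks in only 62.0 kb of bases. Their strongest were tara and CycB. Next were the Polycomb genes ph-d, with a peak 776 bp upstream (signal 224 in the IDR list, 78.4 in replicate 2 and 152 in replicate 3), and Psc (213, 132 and 86.6). The ph-d peak was thus the stronger in replicate 3 and the Psc peak in replicate 2. Among GATA factors and zinc finger regulators 6 of 26 genes (23.1%) had 9 peaks, at 81.3 per Mb (37.2 to 154), with chinmo, lola (a BTB zinc finger gene, signal 138), odd and sob, a relative of odd (73.0), the strongest.

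Of mesoderm and muscle genes 4 of 22 had a peak (54.5 per Mb, 14.8 to 139), which were bin, lmd, a regulator of muscle fusion (signal 103), the actin gene Act87E (87.9) and zfh1 (73.8). Of the Notch list 2 of 18 had one, E(spl)malpha-BFM (131) and fng, whose enzyme modifies Notch (117). Of the Dpp, EGFR, FGF and JAK/STAT list 3 of 25 had one: aop, an ETS repressor of the EGFR pathway (146), upd2, a JAK/STAT ligand (87.0), and dpp, the BMP ligand (75.5). Of axon guidance and adhesion genes 4 of 36 did, namely ds, a large cadherin (163, 556 bp upstream), the Netrin receptor unc-5 (138), the Slit receptor robo2 (137) and Tollo (123). The intervals of these densities all reach down to or below 17.0 per Mb.

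Homeobox genes had about the density of all genes. Outside the Hox group 5 of 53 had a peak, at 14.7 per Mb (4.79 to 34.4), with zfh2 (157), tup (130), zfh1 (73.8) and mirr (73.7) the strongest, and among Hox genes and cofactors 1 of 11 did, hth, 9381 bp upstream (78.7). SoxN (88.5) and nerfin-1 (77.8) were the 2 of 22 proneural and neuroblast genes. The cuticle protein genes had 1 of 77, Cpr76Ba (218), and heat shock genes 1 of 10, stv (68.1).

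No peak of this class was assigned to any of 36 cytosolic ribosomal protein genes (a count of 0 allows a share of up to 8.33%), 18 mitochondrial ribosomal protein genes (16.7%), 17 nuclear receptor and ecdysone genes (17.6%) or 20 neuronal and ion channel genes. For the cytosolic ribosomal list this stands beside 59 of its 83 genes that were nearest to an IDR peak of some class. The nuclear receptor list had 8 of 27 and the neuronal list 3 of 35. The upper Poisson bounds on their densities, 42.7 for the cytosolic ribosomal list, 173 for the mitochondrial one, 41.9 for nuclear receptors and 63.2 for neuronal genes, all lie above 17.0, so an average density could not be told from none at this number of bases.

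**Figure D5:**
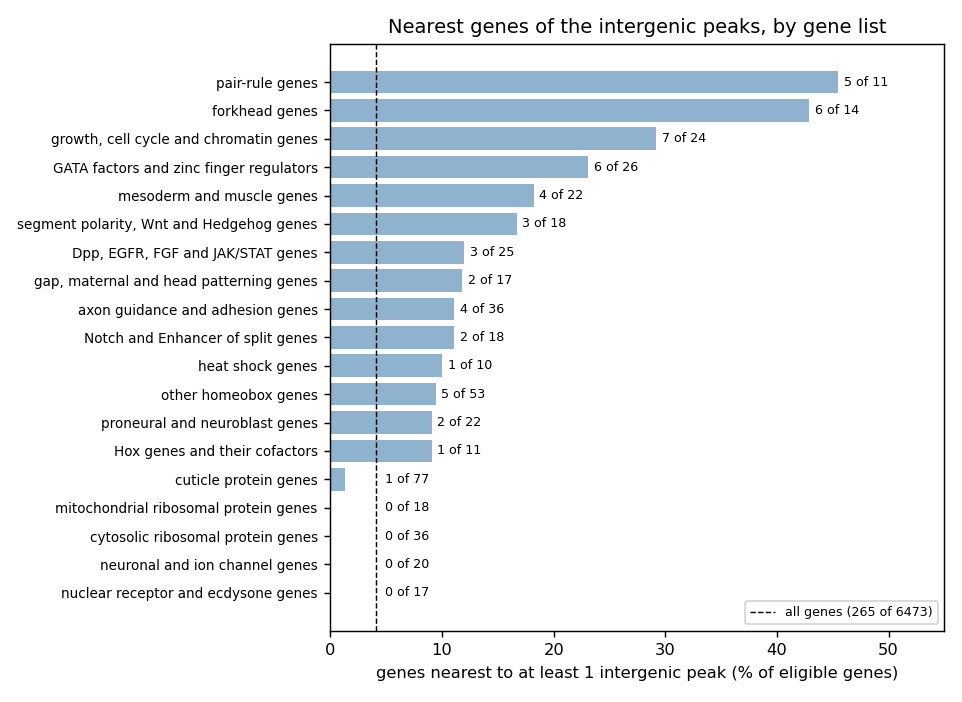
Share of the genes of each list that were nearest to at least 1 peak between genes, as a percentage of the genes nearest to at least 1 base that meets the rule (x axis, from 0), with the counts beside each bar. The dashed line marks 4.09% for all 6473 such genes, and pair-rule genes (5 of 11) and forkhead genes (6 of 14) have the longest bars.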

How the data were processed

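ChIP-seq peaks of 2 samples in 1 group were analysed. Chromatin was sonicated to 200 to 800 bp, per the labels. The authors deposited narrowPeak lists on dm6 and dm3, per the file headers and readme files: 30000 relaxed peaks for each replicate, 28637 pooled and 3203 in the IDR list. The deposited signal value is a score of unstated scale. The deposited -log10 q value stood at its highest, 3.69, for 244 of the 317 peaks and was not used for ranking. The IDR list was tested to be exactly the 3203 strongest pooled peaks. A further data set, from which control-normalised tracks were also made, went into each list, per the readme files, and was not analysed here. The aligner, caller and IDR threshold are not given in the sources used here, and depth is unknown. The dm3 lists were not used.

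TSSs and genes came from Ensembl release 115 (BDGP6.54), whose 5809 transposable elements count as genes in the rule, and bases from the RefSeq Release 6 assembly. "Bases that meet the rule" were counted over all 6 arms with no sampling. A replicate's strongest set is its 3203 strongest peaks, and a peak was held if it overlapped one by at least 1 bp. Of 524 list entries, 14 matched no gene. Scripts in Python 3.11.15 with numpy 2.4.6, pandas 2.3.3 and scipy 1.17.1 were checked on simulated data.

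Named were the nearest genes of the 15 strongest peaks, up to 4 genes a list by signal, the 5 gaps with the most peaks (ties broken by summed signal) and the peaks nearest the limits. The members, lists and words were chosen with earlier results of these data known, so they are no independent support for patterns already seen in them. Alternatives changed the limits, the annotation, the list, the overlap, the window, the word and the replicate used.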

Additional observations from a re-analysis of the deposited data

How the results depend on the processing

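Of 88 values recomputed under 18 alternatives, 57 kept within the main value's interval, the spread between replicates or, for counts of peaks, 1.5 times the main count. A promoter limit of 250 bp gave 80.4% upstream (bases 67.2%), 7.71% with a promoter peak at the nearest gene, a median distance of 1542 bp and a GC content of 36.6%. With 1000 bp these were 68.1% upstream (bases 62.3%), 3400 bp and 36.8%. An outer limit of 5 kb gave 78.7% upstream (bases 69.3%), 1708 bp and 36.55% GC, and 20 kb gave 67.25% (bases 61.8%), 3933 bp and 36.79%. At the 1000 bp limit the interval of the share upstream (62.1 to 73.5) takes in that of the bases, and at the other limits it lies above. Peaks outside protein-coding genes only gave 2524 bp and 36.98% GC, and whole peaks outside every gene 2509 bp and 36.98%. The stronger 50% of the IDR list left 149 peaks, with 98.7% held by both replicates, 2070 bp and 37.1% GC. Overlap of 50% of both peaks lowered the share held by both to 61.8%, and sets of 6000 peaks raised it to 93.1%. The forkhead share was 12.3% with 50 bp to each side (tiled windows 9.62%) and 30.3% with 150 bp (26.3%), and 11.7% and 4.73% with the words TAAACAA and GTAAACA. GC was 36.1% within 50 bp. The causes were not tested, beyond the fewer or wider bases that each setting takes by construction.

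With only 1 replicate's strongest peaks the number of peaks was 306 to 330, the forkhead share 19.7% to 23.5%, the share upstream 71.9% to 73.9%, the share with a promoter peak 14.85% to 15.03%, the share in divergent gaps 38.2% to 38.9%, the median distance 2488 to 2571 bp and GC 37.2% to 37.22%. Not counting transposable elements as genes, chosen after seeing the data, gave 319 peaks. No paired analysis was possible because there is 1 group. Depth is unknown, so what it limits could not be given.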
